A study of Mus musculus with 12 samples.

Results

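Regulatory T cells (Treg) sorted as tTreg from Hepa1-6 tumors were compared with Treg from lymph nodes of tumor-free mice by bulk RNA sequencing. Hepa1-6 is a mouse hepatoma line. The comparison takes the 5 tumor tTreg libraries and the 4 lymph node libraries out of 12 in the series, and its members are the 15705 genes, of 55413 in the deposited count table, that passed a filter on low counts. The tumor tTreg descend from Treg of spleen and lymph nodes of CD45.1 Foxp3YFP-cre donors. They were given to TCRbd-/- hosts, which make no T cells of their own, together with Foxp3- CD4+ and CD8+ T cells of CD45.2 Foxp3YFP-cre donors (1 tTreg to 10 CD4+ to 8 CD8+ cells). Tumor cells followed 3 days later and Treg were sorted from the CD4+ fraction of tumor-infiltrating cells on day 18. The lymph node group is labelled total Treg, with no treatment, and its genotype label names Foxp3YFP-cre and TCRbd-/- mice, as for the tumor libraries. The labels do not say whether lymph node Treg had been transferred, which CD45 allele they carried, or the age or sex of any mouse, and these differences cannot be told apart from the difference between tumor and lymph node. Nor do the labels say that libraries came from separate animals, so p-values measure the spread between these libraries, which may be technical.

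Treg are CD4 T cells that restrain other immune cells and depend on the transcription factor Foxp3. Their high-affinity IL-2 receptor (Il2ra, Il2rb) and the receptor CTLA-4 (Ctla4) serve that function, and thymus-derived Treg usually also hold the Ikaros factor Helios (Ikzf2). Resting Treg of lymph nodes express homing receptors such as Ccr7, whereas effector Treg of tissues and tumors are known for Icos, Ccr8, Tnfrsf9, Batf and Il10.

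Totals ran from 14573864 to 17323894 counts in the lymph node libraries and from 18107272 to 18510923 in tumor tTreg. Libraries of a group lay close together (square root of the common dispersion 0.0314 in lymph node Treg and 0.0340 in tumor tTreg), and no pair was as close as sampling of reads alone would give (lowest chi-square over degrees of freedom 1.65), so each was kept as 1 replicate. Separate libraries made from the same RNA could differ by this much, so it does not show that they came from separate animals. Values are given on a pair of scales. The first is CPM, counts relative to the total of the whole library. The second is counts per 100 counts of the 4 CD3 genes (Cd3d, Cd3e, Cd3g and Cd247), which encode the signalling chains of the T cell receptor and are made by T cells.

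The labelled cell type was checked first. Foxp3 (chromosome X, 7573644 to 7595245 in GRCm38), which defines Treg, read 431, 455, 433 and 443 CPM in the lymph node libraries. In the tumor tTreg libraries it read 8.65, 8.03, 8.97, 8.71 and 9.33 CPM. The groups did not overlap, and Foxp3 fell by 5.66 on the log2 scale (standard error 0.0380, edgeR adjusted p = 4.11e-39), or 50.4-fold. Ikzf2 fell 35.4-fold, from 816 ± 24.5 (SD, n = 4) to 23.0 ± 0.874 CPM (SD, n = 5). Ctla4 fell 18.1-fold, from 476 ± 14.1 to 26.3 ± 1.34 CPM, and Icos, a co-stimulatory receptor, 17.7-fold, from 318 ± 4.18 to 18.0 ± 1.37 CPM. All 4 Treg markers were thus detected in every tumor tTreg library, at a small part of their lymph node level.

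T cell transcripts as a whole were scarce in tumor tTreg. The CD3 sum was 1247 ± 9.98 CPM in lymph node Treg and 21.6 ± 1.71 CPM in tumor tTreg, 57.8-fold lower (log2 difference 5.86, standard error 0.0519). It rested on 18209 to 21787 counts per lymph node library and on 353 to 430 per tumor tTreg library. A wider sum of 18 pan-T genes fell 49.5-fold, from 6742 ± 73.6 to 136 ± 3.29 CPM. In bulk samples fewer T cells and less RNA per T cell cannot be told apart. Cd4, the co-receptor used to gate these cells, fell only 7.05-fold, from 651 ± 12.8 to 92.4 ± 4.09 CPM, and Ptprc, which encodes CD45, 6.05-fold, from 2928 ± 74.1 to 484 ± 11.5 CPM. Other leukocytes carry CD45 as well, and some dendritic cells carry CD4, but the part of such cells in these values was not tested.

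Markers of other cells took a large place in the tumor tTreg libraries. Hepatoma and hepatocyte genes (12, of which 8 were tested and all 8 rose) summed to 7.50 to 9.65 CPM in lymph node Treg and to 8035 to 8386 CPM in tumor tTreg, and 4 of the 12 were at 0 in lymph node Treg. Alb, which encodes serum albumin, read 2961, 3022, 3242, 3110 and 3222 CPM in tumor tTreg. In lymph node Treg it had 3 counts, all in replicate 4, and the ratio of the groups was 68567 (95% binomial interval 23462 to 332488, counting error only). All 14 macrophage genes rose, where 45.7% of all genes tested were higher by CPM and 45.0% lower. Their sum went from 52.8 to 60.7 CPM to 10338 to 10916 CPM, with none at 0 in either group. Csf1r, the CSF1 receptor of macrophages, stood at 2.38 ± 0.490 against 857 ± 19.9 CPM. All 9 fibroblast genes rose as well, from a sum of 3.71 to 5.63 CPM to 4645 to 5206 CPM, with 3 at 0 in lymph node Treg. Fn1, the fibronectin gene, which fibroblasts, macrophages and hepatic cells share, made up most of it at 4088 ± 195 CPM. B cell genes (2 higher and 6 lower of 8) summed to 18.2 to 21.3 CPM in lymph node Treg and 35.8 to 41.9 CPM in tumor tTreg, and CD8 genes (2 of 2 lower) to 18.3 to 23.0 and 0.939 to 1.26 CPM. The part these cells' RNA has in each result by CPM was not tested.

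**Figure D1:**
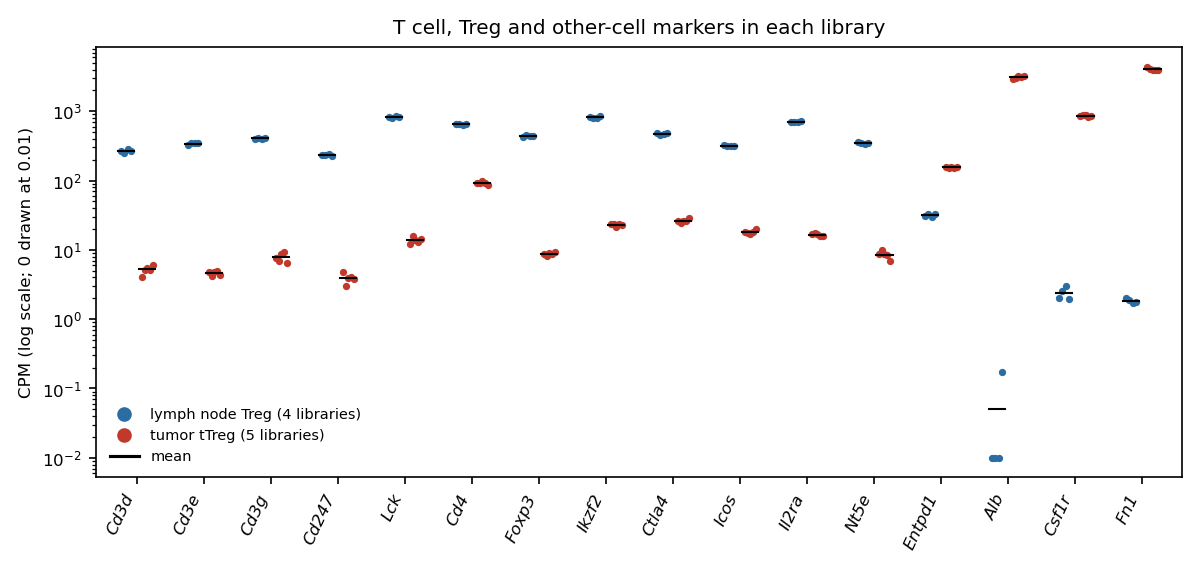
CPM (log axis) of T cell, Treg and other-cell marker genes in each of the 4 lymph node Treg libraries (blue) and 5 tumor tTreg libraries (red), with group means as black lines and values of 0 drawn at 0.01. Foxp3 sits near 441 CPM in lymph node Treg and near 8.74 CPM in tumor tTreg, while Csf1r goes the other way, from 2.38 to 857 CPM.

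Sex-linked genes differed between the groups as well. These genes were chosen after their values were seen. Xist, the RNA that silences an X chromosome in female cells (chromosome X, 103460366 to 103483254), had 4, 2, 5 and 1 counts in the lymph node libraries. In tumor tTreg it had 23024, 21429, 21150, 21836 and 22410 counts, or 1201 ± 47.9 CPM. The Y-linked genes were present in both groups and lower by CPM in tumor tTreg, with Ddx3y at 202 ± 6.15 against 70.1 ± 3.49 CPM and Kdm5d at 82.3 ± 4.51 against 7.40 ± 0.630 CPM. Eif2s3y went from 119 ± 3.30 to 24.5 ± 1.04 CPM and Uty from 36.8 ± 1.14 to 6.10 ± 0.784 CPM. For all 5 genes the groups did not overlap by CPM, as for 85.2% of all genes tested. Per CD3 count the Y-linked genes were higher in tumor tTreg, as were 97.1% of all genes. Over the alternative fits their log2 fold changes were 2.15 to 2.46 for Kdm5d and 3.04 to 3.34 for Uty. Those of Eif2s3y were 3.34 to 3.65 and of Ddx3y 4.10 to 4.41, beside 5.86 for the median gene. The tumor tTreg libraries thus held Xist beside Y-linked transcripts, the lymph node libraries Y-linked transcripts with almost no Xist, and where either came from was not tested.

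**Figure D2:**
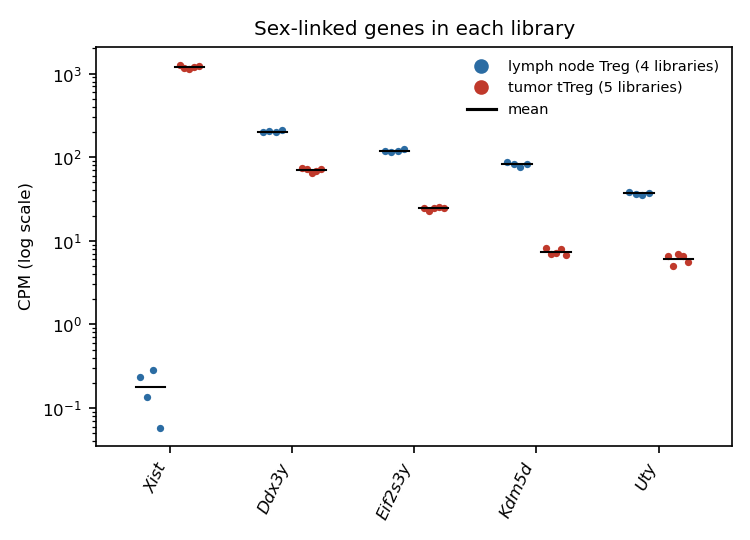
CPM (log axis) of Xist and 4 Y-linked genes in the lymph node Treg libraries (blue, 4) and tumor tTreg libraries (red, 5), with group means as black lines. Xist is near 1201 CPM in tumor tTreg and near 0.180 CPM in lymph node Treg, and all 4 Y-linked genes are detected in both groups.

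By CPM, 7183 of the 15705 genes were higher in tumor tTreg (45.7% of those tested) and 7074 were lower (45.0%), at an adjusted p below 0.05 in the edgeR quasi-likelihood test. Of these, 4675 were at least 2-fold higher and 3783 at least 2-fold lower, and the median log2 fold change of all genes was 0.005. The groups did not overlap for 13378 genes (85.2%). A call by CPM is therefore shared by most genes, and the size and direction of a change tell more than its call. Among the 2343 genes at 100 CPM or more in lymph node Treg, 867 had a log2 fold change between -1 and 0 and 445 between 0 and 1. The deepest falls were few: 44 genes lay between -6 and -5, 22 between -7 and -6, and 6 below -7. The CD3 sum, at a fall of 5.86, sits in that tail.

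Per CD3 count, 15251 genes were higher (97.1%) and 123 lower (0.783%). This scale adds about 5.86 to every log2 fold change, so a gene that any other cell in the tumor libraries makes reads higher on it, and a rise could hardly fail. A fall on it goes against the shift. The uncertainty of the CD3 sum itself (0.104 at 2 standard errors, log2) and its distance from the pan-T sum (5.63 against 5.86) set how small a difference per CD3 count can be read.

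**Figure D3:**
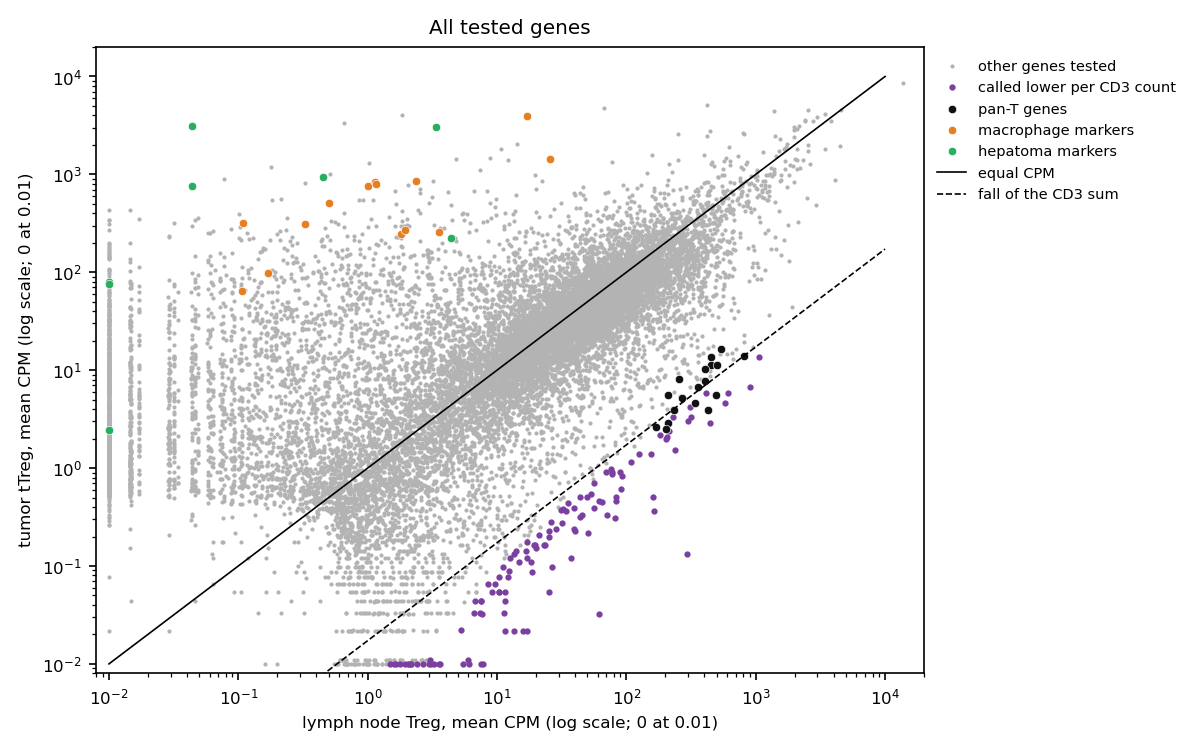
Mean CPM of each of the 15705 tested genes in lymph node Treg (x) and tumor tTreg (y), log axes, with 0 drawn at 0.01; the solid line marks equal CPM and the dashed line the 57.8-fold fall of the CD3 sum. The pan-T genes (black, drawn over any that are also purple) lie along the dashed line, the 123 genes lower per CD3 count (purple) below it, and macrophage (orange) and hepatoma (green) genes above the solid line.

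Genes of the T cell receptor and its signalling fell together by CPM. All 7 genes of the receptor complex fell (median log2 fold change -5.70, against 0.005 over all genes), as did all 18 pan-T genes (-5.72) and all 20 signalling genes (-5.28). For these and the lists that follow, 45.7% of all genes were higher and 45.0% lower by CPM. Per CD3 count the pan-T genes spread around 0, with 7 higher, 5 lower, 6 not called and a median of 0.13. Of all genes 97.1% were higher and 0.783% lower on that scale, with a median of 5.86. Lck, a Src family kinase at the head of receptor signalling, had 66.4, 63.9, 66.9 and 65.4 per 100 CD3 counts in lymph node Treg and 56.8, 81.6, 60, 55.6 and 70.2 in tumor tTreg. These ranges overlap, and the difference was not called (log2 fold change -0.02, standard error 0.0769, adjusted p = 0.751). The adhesion receptor Cd2 (0.81) and the scavenger-type receptor Cd6 (0.79) were higher per CD3 count. The CD3 genes are themselves the scale, so their own values on it are a description: Cd3e stood at -0.34, Cd247 at -0.04, Cd3g at 0.15 and Cd3d at 0.18.

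Members of the receptor itself split. Trac, the alpha constant region, went from 36.4 ± 2.20 to 53.1 ± 4.47 per 100 CD3 counts. The near-identical beta constant genes Trbc1 and Trbc2 moved apart (0.87 and -0.60), but their reads can be shared between them, and their sum was 59.7 ± 1.34 against 63.4 ± 5.06 per 100 CD3 counts. Beta chain variable segments (Trbv) summed to 17.6 ± 0.965 in lymph node Treg and 9.12 ± 1.94 in tumor tTreg per 100 CD3 counts. Of 21 tested segments 11 were lower and 1 higher, against 0.783% and 97.1% of all genes. The Trbv sum rests on 179 counts over the 5 tumor tTreg libraries. The sum of alpha segments (Trav) did not show this, at 8.70 ± 0.466 against 11.2 ± 3.18, with 0 of 59 lower and 4 higher. It rests on 217 tumor tTreg counts spread over 64 segments, which left little room to call a single alpha segment lower.

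The Treg core list (20 genes) divides by scale. By CPM 18 members fell and 2 rose (median -4.33). Per CD3 count 18 were higher and 2 lower, against 97.1% and 0.783% of all genes (median 1.52, against 5.86 over all genes). Several members stayed close to the CD3 genes. Foxp3 read 35.0, 36.4, 34.5 and 35.5 per 100 CD3 counts in lymph node Treg and 40.4, 41.6, 39.1, 37.0 and 44.9 in tumor tTreg. These values do not overlap, but the difference is small (log2 fold change 0.20, standard error 0.0837, adjusted p = 0.0190). Foxp3 was not called with the pan-T sum as the scale (-0.03, adjusted p = 0.621), without Cd3e in the CD3 sum (0.09, adjusted p = 0.318) or without tumor tTreg replicate 5 (0.16, adjusted p = 0.0861). The call on Foxp3 per T cell transcript thus rests on the choice of scale and on 1 library.

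The IL-2 receptor chains were a little higher per CD3 count, Il2ra at 56.5 ± 0.851 against 77.3 ± 8.71 per 100 (log2 fold change 0.45) and Il2rb at 102 ± 1.56 against 170 ± 10.3 (0.73). The Ikaros factors Ikzf2 (0.71) and Ikzf4 (0.64), Nt5e (0.51), which encodes the AMP-hydrolysing enzyme CD73, and Lrrc32 (0.92), which docks latent TGF-beta on the Treg surface, lay in the same range. Nt5e read 346 ± 7.95 CPM in lymph node Treg and 8.50 ± 1.05 in tumor tTreg. Further up stood the receptors of activated Treg. Icos read 26.2, 25.1, 25.1 and 25.5 per 100 CD3 counts in lymph node Treg and 83.4, 89.5, 72.9, 75.8 and 97.9 in tumor tTreg, with no overlap (1.72). Ctla4 went from 38.2 ± 1.29 to 122 ± 10.8 per 100 CD3 counts (1.68), Tnfrsf18, which encodes GITR, from 14.4 ± 0.737 to 46.3 ± 3.81 (1.68), and Tnfrsf4, which encodes OX40, from 14.4 ± 0.803 to 36.9 ± 2.27 (1.36). Itgae, the integrin chain CD103, stood at 2.50 and the inhibitory receptor Tigit at 2.38.

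Other core members were much higher per CD3 count, and these are genes that macrophages, endothelium or other tumor cells are also known to make. Entpd1 (chromosome 19, 40612366 to 40741602), which encodes the ATP-degrading enzyme CD39, read 30.5, 33.2, 29.9 and 32.5 CPM in lymph node Treg. In tumor tTreg it read 155, 154, 155, 152 and 158 CPM. Entpd1 thus rose by CPM, where the T cell genes fell, by 2.30 on the log2 scale (standard error 0.0347, adjusted p = 7.63e-31). Per CD3 count its log2 fold change was 8.15, beside 5.86 for the median gene. Ecm1, a secreted matrix protein, also rose by CPM (1.02), whereas Nrp1, the receptor neuropilin-1, fell less than the CD3 genes (-1.19). Macrophage genes rose by a median log2 of 9.16 in the same libraries, and their part in Entpd1, Ecm1 and Nrp1 was not tested.

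A pair of core members went against the shift. Gpr83 (chromosome 9, 14860210 to 14870789), a G protein-coupled receptor marking Treg, read 167, 161, 161 and 164 CPM in lymph node Treg and 0.383, 0.437, 0.432, 0.329 and 0.221 CPM in tumor tTreg. Per 100 CD3 counts it went from 13.1 ± 0.343 to 1.68 ± 0.463, a 7.82-fold fall (log2 fold change -2.97, standard error 0.189, adjusted p = 1.65e-49). Its tumor tTreg value rests on 33 counts over the 5 libraries. Izumo1r, which encodes the folate receptor 4 of Treg, went from 25.3 ± 0.845 to 15.4 ± 1.74 per 100 CD3 counts (-0.72).

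**Figure D4:**
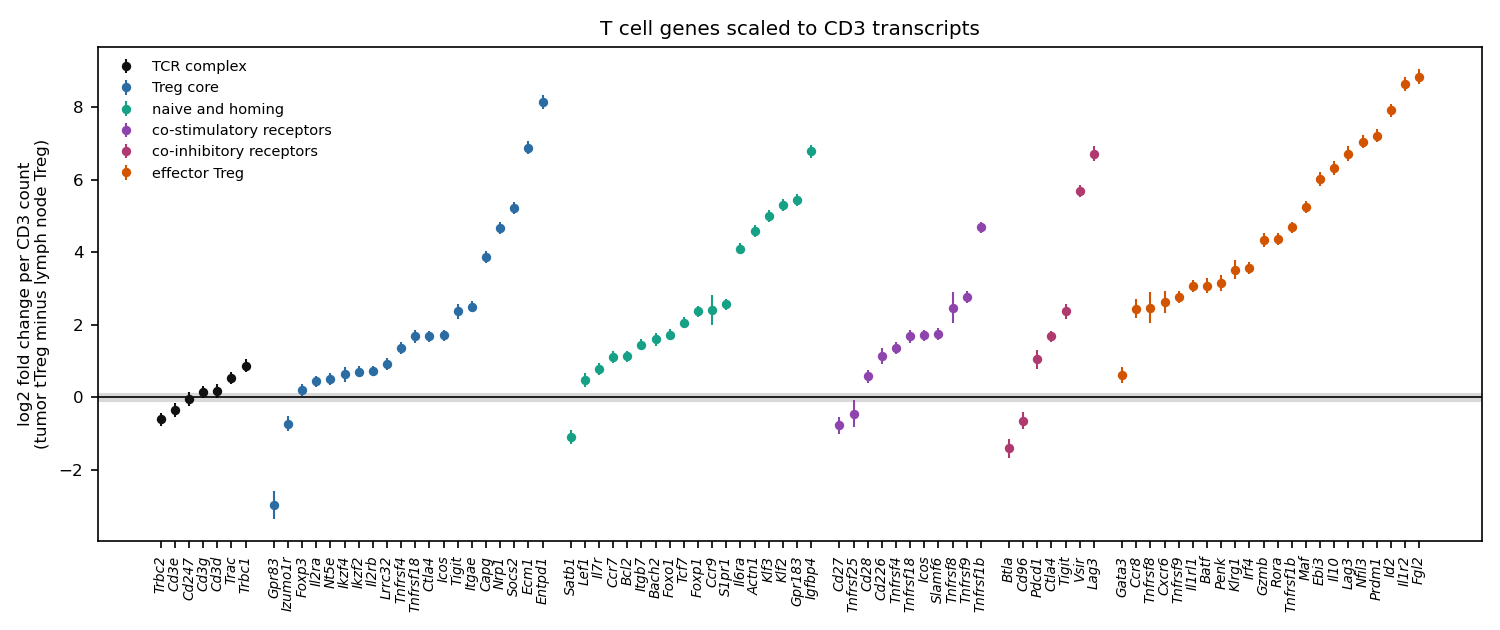
Log2 fold change per CD3 count (tumor tTreg minus lymph node Treg) with bars of 2 standard errors, for members of 6 gene lists at 10 CPM or more in lymph node Treg, except 1 that is not reported. The grey band is 2 standard errors of the CD3 sum (0.104); Gpr83 lies lowest at -2.97, Foxp3 just above the line at 0.20, and genes that other tumor cells share, such as Entpd1 at 8.15, toward the top.

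Because fold changes do not compare genes with each other, levels were read per length from the deposited FPKM. In lymph node Treg, Cd3e (302 ± 11.2 FPKM), Ctla4 (298 ± 10.4) and Foxp3 (284 ± 6.31) stood at similar levels, with Il2rb at 349 ± 5.73. In tumor tTreg, Foxp3 (5.75 ± 0.543 FPKM) and Cd3e (5.50 ± 1.40) were again alike, but Ctla4 stood above both at 16.4 ± 0.941. Entpd1 was the lowest of these in lymph node Treg (10.2 ± 0.935 FPKM) and the highest in tumor tTreg (50.0 ± 0.989). The order of Foxp3 and Cd3e cannot be read in tumor tTreg, where their spreads overlap.

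Naive and homing genes fell in 19 of 20 cases by CPM, with 1 higher (median -3.64). Per CD3 count 18 were higher and 2 lower, against 97.1% and 0.783% of all genes (median 2.22, against 5.86 over all genes). Satb1 (chromosome 17, 51736187 to 51833290), a chromatin organiser needed in Treg precursors, read 47.0, 46.5, 45.7 and 44.8 per 100 CD3 counts in lymph node Treg. In tumor tTreg it read 23.0, 22.1, 20.5, 20 and 22.1, so every tumor library lay below every lymph node library (log2 fold change -1.10, standard error 0.0929, adjusted p = 3.26e-30). Other genes of the list lay above the CD3 genes. Ccr7, the chemokine receptor for lymph node entry, was higher per CD3 count (1.11), as were the IL-7 receptor gene Il7r (0.78), the transcription factors Lef1 (0.49) and Tcf7 (2.06), and S1pr1 (2.56), the receptor for exit from lymph nodes. S1pr1, Tcf7 and Klf2 (5.30) are also made by other cells, whose part in these values was not tested.

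Of 25 effector Treg genes, 10 rose, 14 fell and 1 was not called by CPM (median -1.17). All 25 were higher per CD3 count, as were 97.1% of all genes (median 4.68, below the 5.86 over all genes). Gata3, a Treg and helper T factor, stood lowest of the 25 on that scale and went from 9.07 ± 0.165 to 14.0 ± 3.28 per 100 CD3 counts (0.61). Ccr8, a chemokine receptor of tumor Treg, read 2.69, 2.51, 2.52 and 2.57 per 100 CD3 counts in lymph node Treg and 11.8, 16.4, 12.9, 14.0 and 15.4 in tumor tTreg. The groups lie apart, by 2.45 on the log2 scale (standard error 0.126, adjusted p = 5.51e-71), although by CPM Ccr8 fell 10.6-fold, from 32.1 ± 0.785 to 3.03 ± 0.309. Cxcr6 (2.64), Tnfrsf9 (2.77), Il1rl1 (3.07), which encodes the IL-33 receptor, the factor Batf (3.08), Klrg1 (3.52) and Irf4 (3.57) followed. At the top stood genes that rose by CPM too, such as Il1r2 (15.4 ± 0.530 to 106 ± 6.99 CPM), Fgl2 (37.0 ± 1.93 to 293 ± 13.2), Havcr2 (5.20 ± 0.263 to 52.3 ± 1.44) and Pparg (0.299 ± 0.238 to 8.12 ± 0.666). Myeloid cells make each of these, and the part of the macrophage RNA was not tested. Lag3, an inhibitory receptor of T cells, rose by CPM as well, from 10.5 ± 0.544 to 19.04 ± 1.40. It stood at 6.72 per CD3 count, beside 5.86 over all genes, and which cells its transcripts came from was not tested.

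Among co-stimulatory receptors all 11 fell by CPM (median -4.18). Per CD3 count 9 were higher and 2 lower, against 97.1% and 0.783% of all genes (median 1.68, against 5.86 over all genes). Cd27, a TNF receptor family member, went from 16.5 ± 0.294 to 9.67 ± 1.52 per 100 CD3 counts (-0.77, adjusted p = 7.59e-11). Tnfrsf25, the receptor DR3, went from 4.48 ± 0.233 to 3.33 ± 0.675 (-0.45, adjusted p = 0.0163) on 65 counts. The groups of Tnfrsf25 overlap, and it was not called without tumor tTreg replicate 1 (-0.39, adjusted p = 0.0537), without replicate 3 (-0.36, adjusted p = 0.0719) or by DESeq2 (-0.44, adjusted p = 0.0657). Cd28, the main co-stimulatory receptor, was higher per CD3 count (0.58). Among 9 co-inhibitory receptors 7 fell and 2 rose by CPM (median -3.59), against 45.0% and 45.7% of all genes. Per CD3 count 7 were higher and 2 lower, against 97.1% and 0.783% of all genes (median 2.24, against 5.86 over all genes). Btla, an inhibitory receptor for HVEM, went from 18.98 ± 0.347 to 7.16 ± 1.20 per 100 CD3 counts (-1.41, adjusted p = 1.01e-27) and Cd96 from 17.3 ± 0.819 to 11.1 ± 1.19 (-0.64). Pdcd1, which encodes PD-1, moved the other way, from 4.69 ± 0.284 to 9.77 ± 1.45 per 100 CD3 counts (1.05), while by CPM it fell 27.8-fold from 58.6 ± 3.99 to 2.10 ± 0.260.

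Of 23 regulators of Treg development and stability, 19 fell and 4 rose by CPM (median -1.26). Per CD3 count 21 were higher and 2 lower, against 97.1% and 0.783% of all genes (median 4.60, against 5.86 over all genes). The lower 2 were Satb1 and the Ikaros factor Ikzf3, which went from 24.0 ± 0.681 to 14.0 ± 1.35 per 100 CD3 counts (-0.78). Ets1, an abundant T cell factor, fell 43.3-fold by CPM, from 1917 ± 36.4 to 44.3 ± 2.34, and stood at 0.42 per CD3 count.

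Of 14 Th1 genes 11 fell and 3 rose by CPM (median -2.07). All 14 were higher per CD3 count, as were 97.1% of all genes (median 3.75, below the 5.86 over all genes). Ifng, the Th1 cytokine, read 13.8 ± 1.28 CPM in lymph node Treg and 2.81 ± 0.534 in tumor tTreg. Per 100 CD3 counts it went from 1.10 ± 0.105 to 13.0 ± 2.51 (3.56). Tbx21, which encodes T-bet, went from 3.61 ± 0.191 to 1.78 ± 0.434 CPM and from 0.289 ± 0.0160 to 8.23 ± 1.72 per 100 CD3 counts (4.82), and Cxcr3, the chemokine receptor it induces, from 26.2 ± 1.62 to 4.31 ± 0.379 CPM (3.25 per CD3 count). Stat4, the IL-12 signal transducer, was the member nearest to the CD3 genes (1.00). Among 16 chemokine receptors 13 fell and 3 rose by CPM (median -2.91), against 45.0% and 45.7% of all genes. Ccr6, a receptor of Th17 cells and Treg, was the 1 member lower per CD3 count (-1.04, adjusted p = 0.000316), on 22 tumor tTreg counts and with overlapping groups. Ccr1 (1.21 ± 0.0345 to 188 ± 1.19 CPM) and Cx3cr1 (1.14 ± 0.235 to 156 ± 6.01 CPM), receptors of monocytes and macrophages, rose most. Of 15 suppressive effector genes tested 6 rose, 6 fell and 3 were not called by CPM (median -0.01), with Il10 at 13.8 ± 1.58 against 19.1 ± 1.40 CPM and Tgfb1 at 183 ± 1.79 against 182 ± 9.31 CPM (log2 fold change -0.01, adjusted p = 0.689). With TMM factors Tgfb1 was called higher by 0.084 (adjusted p = 0.0111), and with RLE factors by 0.10 (adjusted p = 0.00300).

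The 123 genes lower per CD3 count, 0.783% of those tested, were all lower by CPM too. They comprise 11 beta variable segments, 32 predicted or Riken genes and 80 others, and their median level was 25.1 CPM in lymph node Treg and 0.164 CPM in tumor tTreg. By at least 2-fold 81 were lower. Of those at 10 CPM or more in lymph node Treg and with over 3 counts in tumor tTreg, the deepest fall was that of Nsg2 (chromosome 11, 32000463 to 32059202), which encodes a vesicle protein of neurons. It had 5030, 4205, 5200 and 5077 counts in the lymph node libraries. In tumor tTreg it had 1, 3, 3, 2 and 3 counts. Per 100 CD3 counts Nsg2 went from 23.6 ± 0.397 to 0.615 ± 0.249, a 38.8-fold fall (log2 fold change -5.28, standard error 0.217, adjusted p = 1.94e-102).

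Slc28a2b, a nucleoside transporter gene, Vmn2r84, a vomeronasal receptor gene, and Kcna2, a potassium channel gene, had 3, 2 and 2 counts over the tumor tTreg libraries. Their ratios by CPM, lymph node over tumor tTreg, were 1880 (95% binomial interval 643 to 9118), 784 (217 to 6485) and 613 (169 to 5068). Gata1, an erythroid and mast cell factor that Treg also express, had 423, 367, 461 and 432 counts in lymph node Treg and 0, 3, 0, 0 and 2 in tumor tTreg. The sialic acid transferase genes named by the rule were St8sia6, which went from 12.8 ± 0.498 to 2.34 ± 0.984 per 100 CD3 counts (-2.46), and St8sia1, which went from 6.52 ± 0.346 to 1.40 ± 0.530 (-2.20). Also lower were the potassium channel gene Kcnf1 (3.00 ± 0.180 to 0.567 ± 0.410), the p38 kinase gene Mapk11 (6.67 ± 0.280 to 2.17 ± 0.724), the endocytic adaptor Pacsin1 (6.65 ± 0.213 to 2.39 ± 1.50) and the DNA demethylase Tet1 (1.90 ± 0.179 to 0.767 ± 0.400). The rule that named these genes took only falls without overlap per CD3 count. That the 5 tumor tTreg libraries lay below all 4 lymph node libraries was thus set by it.

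T cell genes were in this group beside those already named. Prkcq, the kinase PKC-theta that links the T cell receptor to NF-kB, read 37.0, 35.6, 34.0 and 36.1 per 100 CD3 counts in lymph node Treg. In tumor tTreg it read 13.8, 14.4, 13.2, 9.77 and 15.4 (log2 fold change -1.43, standard error 0.104, adjusted p = 2.52e-39). Bcl11b (chromosome 12, 107910403 to 108003602), a transcription factor that maintains T cell identity, went from 34.6 ± 0.148 to 18.3 ± 1.21 per 100 CD3 counts (-0.92). These falls exceed the uncertainty of the CD3 sum by far, whereas small called falls, such as Cd3e at -0.34, lie near its distance from the pan-T sum. With the pan-T sum as the scale 152 genes were lower, 121 of them among the 123.

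**Figure D5:**
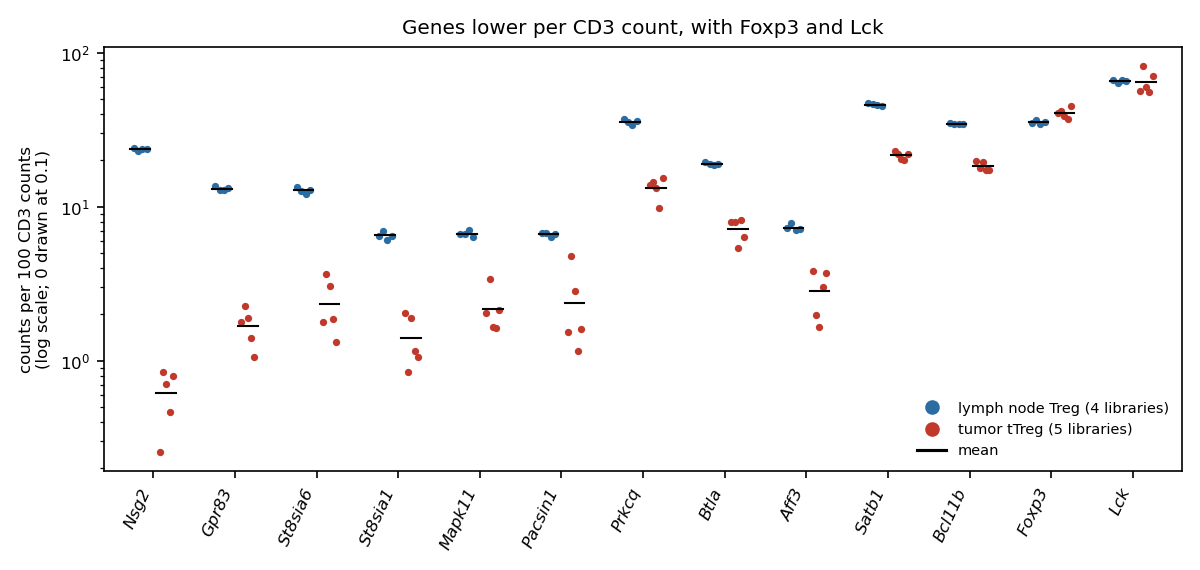
Counts per 100 CD3 counts (log axis) in each lymph node Treg library (blue, 4) and tumor tTreg library (red, 5) for 11 genes lower per CD3 count, beside Foxp3 and Lck, with group means as black lines. Nsg2 lies lowest in tumor tTreg at 0.615, Satb1 goes from 46.0 to 21.5, and the points of Lck overlap.

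The sequence before the start site was read for the 80 genes of this group that are neither segments nor predicted. They share a direction because the group was picked by it. RefSeq windows (GRCm38.p6, the 250 bases before each start) matched 67 of them by symbol, and 11252 of all tested genes. On either strand the TCF/LEF letters CTTTGA stood in 14 of the 67 windows (20.9%) against 11.3% of all windows, the ETS letters GGAAG in 64.2% against 68.5%, the KLF letters CACCC in 64.2% against 57.3%, and the FOXO letters GTAAACA in 0 against 2.28%. None of these motifs contains another. A match describes letters and does not show binding. Windows of 2 genes are printed because they hold the TCF/LEF letters, in capitals (TCAAAG is CTTTGA on the other strand), and encode T cell proteins: Txk, a Tec family kinase, at chr5:72752778-72753027 on the minus strand, and Tnfrsf25 at chr4:152115684-152115933 on the plus strand. Both windows lie outside the gene models of GENCODE vM21. Txk was chosen after its values were seen. It went from 7.37 ± 0.326 to 3.83 ± 0.700 per 100 CD3 counts (-0.96).
Txk: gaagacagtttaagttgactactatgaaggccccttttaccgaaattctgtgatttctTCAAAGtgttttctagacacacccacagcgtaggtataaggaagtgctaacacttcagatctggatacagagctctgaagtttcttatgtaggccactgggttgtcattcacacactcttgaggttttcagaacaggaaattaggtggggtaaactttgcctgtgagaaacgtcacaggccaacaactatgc
Tnfrsf25: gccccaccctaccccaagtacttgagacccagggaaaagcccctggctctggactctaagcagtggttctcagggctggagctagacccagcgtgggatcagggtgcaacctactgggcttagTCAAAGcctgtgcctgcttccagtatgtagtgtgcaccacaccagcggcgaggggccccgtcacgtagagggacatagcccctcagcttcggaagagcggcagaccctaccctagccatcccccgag

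Among the largest rises by CPM were genes with no count in lymph node Treg. Taking 3 counts over the lymph node group as a floor, Aldh1a1, a retinaldehyde dehydrogenase, was at least 9440-fold higher, at 403, 435, 431, 436 and 437 CPM in tumor tTreg. Itih2, a hepatic serum protein gene (at least 7543-fold), Faim2, an apoptosis inhibitor gene (7468-fold), Col3a1, a fibrillar collagen (6872-fold), Fmod, a matrix proteoglycan (5977-fold), and Ccl24, a macrophage chemokine (4402-fold), followed.

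Several metabolic and stress lists rose by CPM, where 45.7% of all genes were higher and 45.0% lower. Of 20 glycolysis and hypoxia genes 17 rose and 3 fell (median 1.96), with Vegfa, an angiogenic factor, at 1.45 ± 0.296 against 180 ± 5.80 CPM and the hexokinase gene Hk2 at 8.59 ± 0.915 against 208 ± 3.56 CPM. Of 24 oxidative phosphorylation genes 21 rose and 1 fell (median 0.71), and of 16 for cholesterol synthesis 11 rose and 3 fell (median 1.01). Of 20 cell cycle genes 17 rose and 2 fell (median 0.77), with the proliferation marker Mki67 at 103 ± 5.50 against 197 ± 5.38 CPM. Of 16 stress genes linked to tissue dissociation 15 rose and 1 fell (median 0.63), among them Atf3 at 4.84 ± 0.434 against 1452 ± 24.5 CPM. Type I interferon genes were mixed, with 6 higher, 8 lower and 1 not called (median -0.48): Rsad2, an antiviral enzyme gene, rose from 5.14 ± 0.505 to 79.1 ± 2.45 CPM. All members of these lists were higher per CD3 count, as were 97.1% of all genes. Hepatoma and macrophage genes rose in the same libraries, and which cells these transcripts came from was not tested.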

How the data were processed

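The deposited tables hold RSEM expected counts and FPKM for 12 libraries, per the submitters' processing notes, which name STAR 2.7.11a, RSEM 1.3.3, DESeq2 and the build GRCm38/mm10. The authors deposited expected counts that are whole numbers in the file, so rounding changed none, and the FPKM values were used as deposited. The gene annotation, strand setting and any step against duplicates are not given in the sources used here.

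Genes passing filterByExpr by group were tested with the edgeR 4.0.16 quasi-likelihood test (R 4.3.3) over all 12 libraries in 1 fit, with Benjamini-Hochberg adjustment over the 15705 genes and a call at an adjusted p below 0.05. Library size was the deposited total (CPM), or the count sum of the 4 CD3 genes. The tools of the alternatives were limma 3.58.1 and DESeq2 1.42.0, and they changed the factors, the filter, the libraries fitted, the tool, the unit, the fold threshold, the CD3 sum or the libraries kept. Positions come from GENCODE vM21, in which 15435 tested symbols were found.

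Members and lists were chosen with earlier results of these data known. Genes named are 20 set by the question, the 10 largest changes each way by CPM and the 20 largest falls per CD3 count (at least 10 CPM in the higher group, no overlap), up to 4 members of smallest p and the 2 most abundant of each list, and all members of 6 lists. The 36 lists are described by counts and medians without a set test. Lists of neutrophils, dendritic cells, plasma cells, NK cells, endothelium, lymph node stroma, erythroid cells, IL-2 and STAT5, T cell receptor and NF-kB activation, Th2 and Th17, helper cytokines, ribosomal proteins and mitochondrial genes are given in the closing section. Values of 5 genes are not reported here, and they stay in the fits and list counts. Intervals and floors cover counting error only.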

Additional observations from a re-analysis of the deposited data

Results flagged for a closer look

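Of 340 groups of values examined, 21 (6.18%) held a library whose gap to the nearest other library exceeded the 95% critical value of Dixon's test, where chance alone gives about 1 in 20. In lymph node Treg, replicate 2 had the lowest depth (14573864 counts, the others 16996928 to 17323894), the highest Aff3 (97.2 CPM) and the lowest Rsad2 (4.39 CPM). Replicate 1 was lowest for Cd27 (199 CPM) and highest for Slc28a2b (64.2 CPM), replicate 3 was lowest for Rora (89.4 CPM), and replicate 4 was lowest for Cd6 (442 CPM) and highest for Rel (295 CPM) and Alb (0.174 CPM, the others 0).

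In tumor tTreg, replicate 1 was lowest for Aldh1a1 (402.7 CPM) and C1qb (786 CPM) and highest for Klf2 (245 CPM) and Maf (101.0 CPM). Replicate 2 was lowest for Areg (5.85 CPM) and Havcr2 (49.8 CPM) and highest for Mapk11 (0.656 CPM), and replicate 3 was lowest for Id2 (201 CPM). Replicate 4 was lowest for Rora (31.98 CPM) and highest for Stat4 (5.09 CPM) and Vmn2r84 (0.110 CPM, the others 0), and replicate 5 was lowest for Ifng (1.88 CPM). The flags were spread over all 9 libraries, 1 to 4 in each.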

How the results depend on the processing

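Counts of called genes stayed within 1.5 times under the alternatives run, except in the settings named next. Testing against an absolute log2 fold change of 1 left 4385 genes higher and 3428 lower by CPM, and 55 lower per CD3 count. With no filter 23312 genes were higher per CD3 count, of 27279 then tested. TMM and RLE factors moved the median log2 fold change of all genes to 0.10 and 0.12, with 7550 higher and 6637 lower under TMM. Tgfb1 by CPM turned to 0.084 with TMM factors, 0.10 with RLE factors and 0.10 with DESeq2 size factors, each called higher there, and Nr4a1 turned to -0.14, called lower, in all 3 fits of FPKM by limma; the cause was not tested. Foxp3 per CD3 count turned to -0.028 with the pan-T sum. DESeq2 on the same scale left 87 genes lower per CD3 count, all among the 123. Leaving out each library in turn gave 7103 to 7151 genes higher and 6869 to 7043 lower by CPM, and 15149 to 15187 higher and 110 to 126 lower per CD3 count. Of the named genes' other fits, 3 by CPM and 10 per CD3 count lost the call, and 9 per CD3 count gained it; Cd40lg per CD3 count was among those lost without tumor tTreg replicate 1 (adjusted p = 0.0834) and replicate 2 (0.128). Depth limits the CD3 scale, since a tumor tTreg library holds 353 to 430 CD3 counts.

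No pairing of the samples by replicate number was seen: deviations of same-numbered libraries correlated at -0.037, -0.026, 0.083 and 0.024 over 9613 genes, and no lymph node library correlated best with its own number. Libraries prepared together need not show such a correlation, so this cannot exclude a pairing. A fit with the replicate block gave 7133 higher and 7005 lower by CPM and 15233 higher and 121 lower per CD3 count, of which 110 were among the 123. Foxp3 per CD3 count was not called in it (0.16, adjusted p = 0.0656), and Cd3g was (0.20, adjusted p = 0.0257).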

Other observations

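Other lists moved as follows by CPM. The NF-kB and receptor activation list split into 8 higher and 10 lower (median log2 fold change -0.26), with Cd69, an early activation receptor, falling from 523 ± 13.9 to 45.3 ± 2.61 CPM and Nr4a1, an antigen-response factor that other cells share, at 421 ± 21.9 against 453 ± 9.53 CPM. Nr4a1 was called higher by CPM and called lower in the fits of FPKM (-0.14, adjusted p = 0.00134). Of 12 IL-2 and STAT5 genes 10 fell and 1 rose (median -2.78). Of 7 helper cytokines 5 fell and 2 rose (median -2.29), with Cd40lg, the ligand of CD40, at 30.0 ± 1.24 against 0.711 ± 0.161 CPM and Tnf at 36.8 ± 1.14 against 127 ± 4.52 CPM. Of 8 Th2 and Th17 genes 4 fell and 1 rose (median -1.52). Of 82 ribosomal protein genes 60 fell and 11 rose (median -0.36), and of 13 mitochondrially encoded genes 9 rose and 2 fell (median 0.39). For comparison 45.7% of all genes were higher and 45.0% lower.

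Of the remaining cell type lists, 5 of 8 for dendritic cells rose and 1 fell (Itgax, shared with macrophages, 1.16 ± 0.0742 to 296 ± 4.60 CPM). Neutrophil genes rose in 5 of 6 with none lower, plasma cell genes in 2 of 3 with none lower, NK and gamma delta genes in 3 of 6 with 2 lower, lymph node stroma genes in 3 of 3 and erythroid genes in 5 of 5. In tumor tTreg lymph node stroma genes summed to 13.5 CPM, erythroid genes to 32.8 and neutrophil genes to 44.7. Plasma cell genes summed to 125 CPM there, and NK and gamma delta genes to 180. Endothelial genes rose in 4 of 6 and fell in 1, Pecam1, which T cells also make, from 189 ± 2.53 to 18.4 ± 0.854 CPM. Of all genes 45.7% were higher and 45.0% lower. Which cells the transcripts of these lists came from was not tested, so the rises do not show that the named cells were present.

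Immunoglobulin genes were chosen after their values were seen. Ighm, the IgM heavy chain gene, read 386 ± 6.32 CPM in the lymph node libraries, where Igkc, the kappa light chain gene, read 1.68 ± 0.365 CPM. In tumor tTreg Ighm read 63.1 ± 3.67 CPM beside 1.65 ± 0.582 CPM of Igkc.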
